A study of Mus musculus with 2 samples.

Results

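The genes described here are 10 neurotransmitter receptor genes known from astrocytes, found by symbol among all 32285 genes of the tables from cortical single-cell libraries. They are the glutamate receptor genes Gria1, Gria2, Grin2c, Grm3 and Grm5, the GABA receptor genes Gabrb1, Gabbr1 and Gabbr2, the adrenergic receptor gene Adra1a and the adenosine receptor gene Adora1, and all 10 symbols were found. Cells came from cortex of 4-month-old male mice, knockout (KO) for Fam69c (listed as Dipk1c, a kinase-like protein of the secretory pathway) or wild-type (WT). Cortices were pooled by genotype before dissociation, dead cells were stained with 7-AAD for the sort, and 1 library was made per genotype with droplet chemistry that tags the 3' end of transcripts. The labels name 7 mice without saying how many stood in each pool, and give neither the strain nor the design of the deleted allele.

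Astrocytes are glial cells that wrap synapses and respond to transmitters that spill from them. Glutamate, GABA, noradrenaline and adenosine reach ion channels (the AMPA, NMDA and GABA-A receptors) and G protein-coupled receptors (metabotropic glutamate, GABA-B, adrenergic and adenosine receptors) on the astrocyte surface. Several of the coupled receptors raise or restrain calcium release from internal stores.

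With 1 library per genotype there was no test, and genotype, pool and library cannot be told apart. Levels are UMIs (unique molecular identifiers, 1 for each transcript captured) summed over the cells of a class, divided by the UMI total of that class and given as CPM. Ranges in parentheses are exact 95% intervals and cover counting error alone. The KO library held 9182 barcodes and 75473717 UMIs, and the WT library 7150 barcodes and 57166105 UMIs. After filtering, 7032 KO and 4940 WT cells were kept, with medians of 8438.5 and 8570 UMIs. The 2 libraries shared 17 barcodes, 10 of them among kept cells. Dipk1c itself stood at 33.6 CPM (31.7 to 35.6) in KO and 59.2 CPM (56.2 to 62.3) in WT astrocytes, so transcripts counted for the targeted gene were present in the KO library.

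A cell was put in a class when at least 70% of its marker UMIs, over lists for 18 cell types, belonged to that class. The astrocyte gate took 4096 KO cells (58.2% of those kept) and 2172 WT cells (44.0%). All 10 of its markers were detected in both libraries, and they summed to 8689 CPM in KO and 8924 CPM in WT cells. Astrocyte genes that the gate did not use were also seen, and they differed in direction. Slc1a2, the main glutamate transporter, stood at 7809 CPM in KO and 10846 CPM in WT astrocytes. Higher in KO were Aldoc, at 5158 CPM in KO and 3839 in WT, Cldn10, at 1276 and 899, and Mlc1, at 335 and 311. Median UMIs per gated astrocyte were 8969.5 in KO and 11869 in WT. Of the gated astrocytes, 156 in KO and 154 in WT had 70 to 80% of their marker UMIs from astrocyte markers. A further 7 classes had at least 50 cells in each library: oligodendrocytes (788 KO and 647 WT cells), microglia (296 and 252), endothelial cells (247 and 147), neuroblasts (403 and 221), neutrophils (121 and 75), T or NK cells (102 and 76) and B cells (81 and 72).

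The receptor genes fell into a few patterns across these 8 classes. In both libraries, 9 of the 10 had their highest CPM in the astrocyte gate, and the exception, Adora1, was highest in oligodendrocytes. Outside these 8 classes, a small cluster of oligodendrocyte precursors, described at the end, held more Grm5 than astrocytes in both libraries. Free astrocyte RNA in the droplets can also give UMIs in other cells, and its amount was not measured here. As a yardstick, Slc1a2, Aldoc, Mlc1 and Cldn10 together stood in KO and WT oligodendrocytes at 2.91% and 1.90% of their astrocyte level, in microglia at 3.61% and 1.86%, and in neuroblasts at 2.17% and 2.02%. The share was larger in endothelial cells, at 6.16% in KO and 5.01% in WT, and in neutrophils, at 10.99% in KO and 16.02% in WT. These 4 genes were chosen after the levels were seen. A receptor gene at or below these shares is read as background in what follows. The 4 genes did not stand at 1 common share. In WT neutrophils Slc1a2 stood at 2051 CPM, against 10846 CPM in WT astrocytes, and Cldn10 at 71.9 CPM against 899 CPM. A receptor gene close to a share is thus not separated from it.

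**Figure D1:**
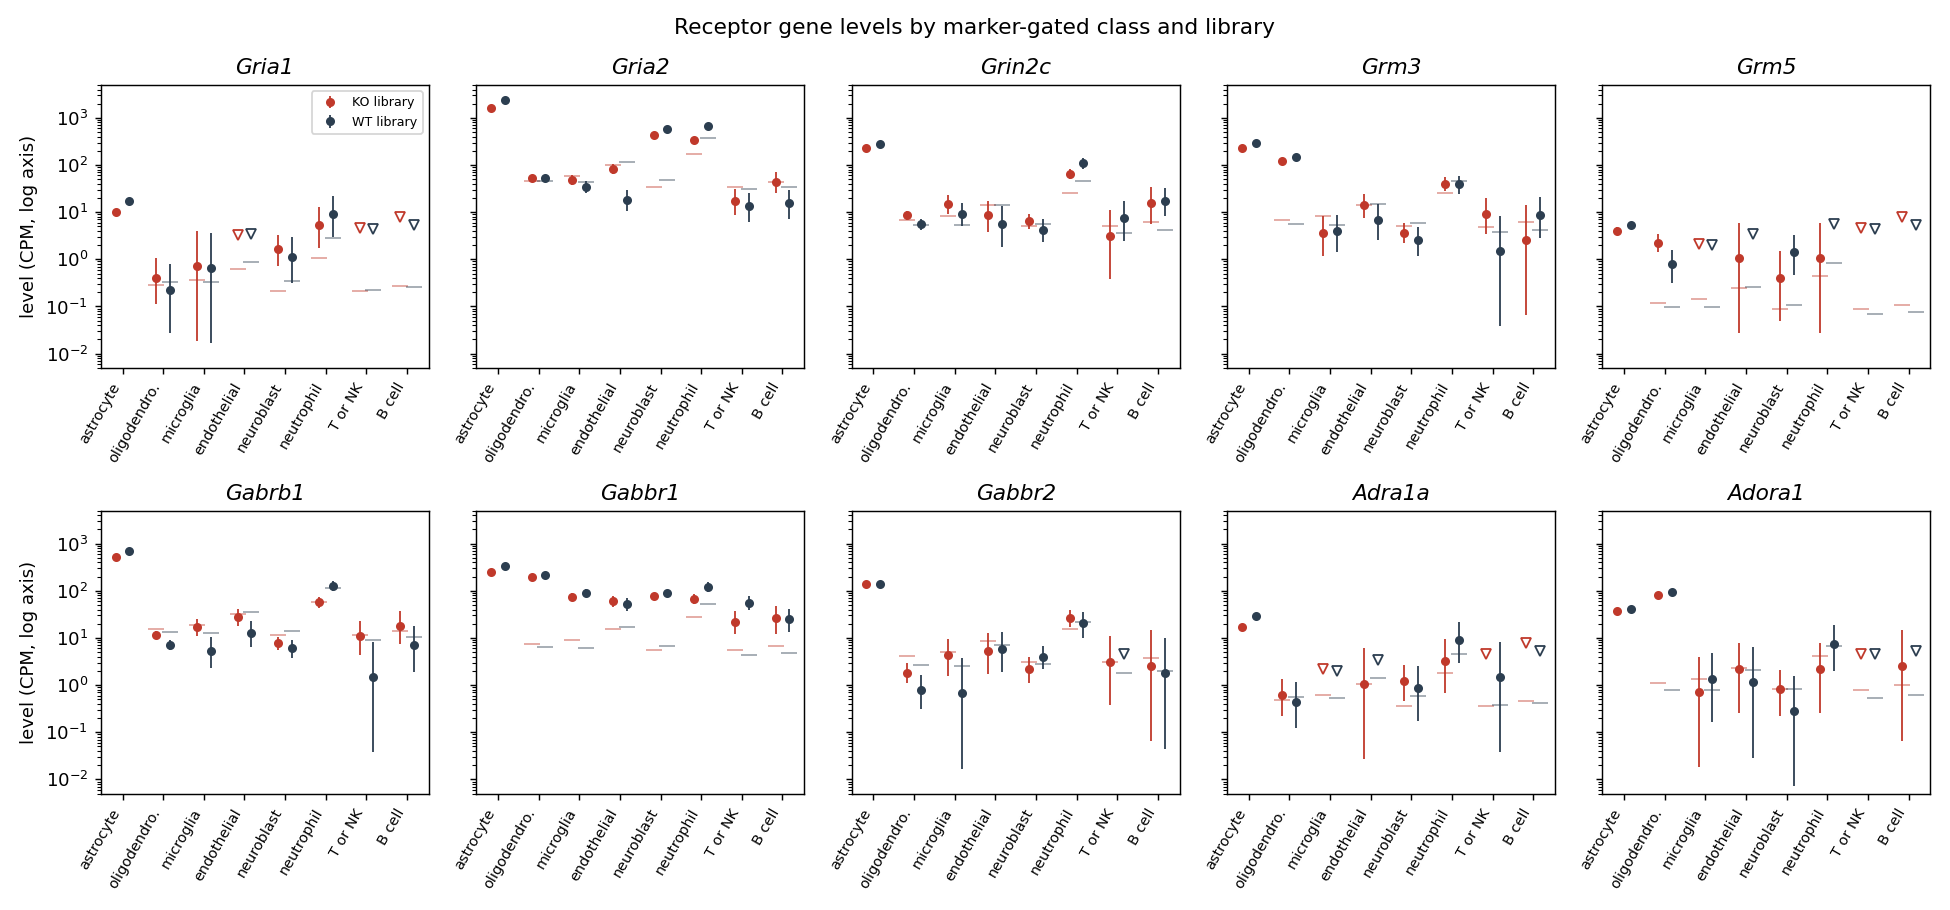
Level of each receptor gene (CPM, log axis) in 8 marker-gated classes, KO library in red and WT library in dark blue, with exact 95% counting intervals. Open triangles mark the level 3 UMIs would make where none was counted, and faint dashes mark the level that the astrocyte RNA yardstick would give. Astrocytes are highest for all genes but Adora1, Grm3, Gabbr1 and Adora1 also stand far above the dashes in oligodendrocytes, and Gabbr1 stands above them in each class.

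Gabrb1, Gabbr2, Grin2c and the sparse Gria1 and Adra1a moved together across the 16 class-by-library points, while Grm3 sat closer to Adora1. On log2 of CPM with 10 added, Pearson's r was 0.98 for Gabbr2 with Gabrb1, 0.96 for Gabrb1 with Grin2c, 0.94 for Gabbr2 with Grin2c, 0.89 for Adora1 with Grm3 and 0.71 for Gabbr2 with Grm3. It was 0.97 for Adra1a with Gria1, 0.95 for Adra1a with Gabrb1 and 0.93 for Gabbr2 with Gria1. The points share 2 libraries, and the astrocyte points lie apart from the rest, so these values only describe the pattern. The promoters of Grin2c and Gabbr2, whose levels in oligodendrocytes stood near or below the yardstick, are set beside that of Grm3, which oligodendrocytes held well above it. Each runs 5' to 3' on its gene's strand from 250 bases before to 50 bases after the start in RefSeq (GRCm38.p6), at chr11:115267194-115267493 (minus strand) for Grin2c, chr4:46991665-46991964 (minus) for Gabbr2 and chr5:9725303-9725602 (minus) for Grm3. Capitals mark TTGGC or its reverse complement GCCAA, the half-site of nuclear factor I, a family of transcription factors with roles in astrocyte development.
Grin2c: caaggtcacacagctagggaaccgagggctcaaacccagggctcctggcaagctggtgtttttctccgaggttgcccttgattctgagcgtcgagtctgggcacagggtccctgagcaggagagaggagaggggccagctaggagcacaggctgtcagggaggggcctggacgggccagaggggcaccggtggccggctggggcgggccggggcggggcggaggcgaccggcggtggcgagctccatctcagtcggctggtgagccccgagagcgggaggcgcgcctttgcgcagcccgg
Gabbr2: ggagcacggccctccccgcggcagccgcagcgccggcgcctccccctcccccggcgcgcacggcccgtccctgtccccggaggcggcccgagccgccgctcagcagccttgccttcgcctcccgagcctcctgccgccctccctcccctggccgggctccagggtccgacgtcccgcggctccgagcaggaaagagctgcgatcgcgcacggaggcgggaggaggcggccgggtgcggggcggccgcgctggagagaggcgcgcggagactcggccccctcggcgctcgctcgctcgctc
Grm3: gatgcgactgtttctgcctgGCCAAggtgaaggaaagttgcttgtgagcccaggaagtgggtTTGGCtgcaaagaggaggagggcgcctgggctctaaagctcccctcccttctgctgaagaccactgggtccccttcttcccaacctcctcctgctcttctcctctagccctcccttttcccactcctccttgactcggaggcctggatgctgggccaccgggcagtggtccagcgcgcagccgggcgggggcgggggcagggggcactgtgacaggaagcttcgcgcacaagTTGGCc
The Grm3 window held 3 half-sites, and the Grin2c and Gabbr2 windows held none. Of 10 receptor genes, 7 matched this table with 9 promoters, and 2 of these 9 held a half-site on either strand, against 46.7% of all 32851 promoters. Besides Grm3, only Gabrb1 held a half-site, 1 in its window at chr5:71699682-71699981 and none in its other window. Gabbr1 and Adora1, which oligodendrocytes held well above the yardstick, had none, and Gabrb1 lay below the yardstick there. The half-sites thus did not follow the oligodendrocyte levels. The full palindrome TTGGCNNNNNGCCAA was in none of the 9 and in 0.0365% of all promoters. A match describes the letters in the window and no more.

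The AMPA receptor genes encode the fast glutamate-gated channels. Gria2 (GluA2, the subunit whose edited form keeps calcium out of the channel) lies at chr3:80681450-80802835 on the minus strand (GRCm38, as are all gene positions here). It stood at 1593 CPM (57092 UMIs) in KO and 2359 CPM (57691 UMIs) in WT astrocytes, a KO over WT ratio of 0.675 and a log2 ratio of -0.57 (-0.58 to -0.55). The gene was thus lower in the KO library by far more than counting error. Of astrocytes, 93.9% in KO and 92.5% in WT had at least 1 Gria2 UMI. In the cells with at least 2000 UMIs, which left out 221 KO and 214 WT astrocytes, the shares were 96.4% in KO and 96.0% in WT. After these same cells were thinned to 2000 UMIs each, the shares were 85.8% in KO and 91.5% in WT, the other way round. Gria1 (GluA1, chr11:57011387-57330244, plus strand) was sparse, at 9.88 CPM (354 UMIs) in KO and 17.3 CPM (424 UMIs) in WT astrocytes, log2 -0.81 (-1.02 to -0.60). It had a UMI in 2.01% of thinned KO and 4.29% of thinned WT astrocytes.

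Gria2 was also found in neuroblasts, at 424 CPM (406 to 442) in KO and 571 CPM (547 to 597) in WT, which is 26.6% and 24.2% of the astrocyte level. In oligodendrocytes it stood at 53.1 CPM in KO and 54.2 CPM in WT, or 3.33% and 2.30% of the astrocyte level, close to the yardstick of 2.91% and 1.90%. Microglial Gria2, at 3.02% in KO and 1.46% in WT, lay below its yardstick in both libraries and is read as background. The neutrophil gate held 348 CPM (311 to 388) in KO and 674 CPM (607 to 747) in WT. Those values are 21.8% and 28.6% of the astrocyte level, above the neutrophil yardstick of 10.99% in KO and 16.02% in WT. That gate also carried the largest share of astrocyte RNA, whose part in these values was not tested.

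Within the AMPA family the classes differed in which subunit genes gave the UMIs. These shares are of 3' UMIs, and capture may differ between genes, so they compare classes and libraries rather than subunits. Gria2 gave 99.3% of Gria1 to Gria4 UMIs in KO and 99.2% in WT astrocytes. In oligodendrocytes it gave 63.7% in KO and 60.6% in WT, and Gria4 gave 35.2% (32.0 to 38.6) in KO and 38.6% (35.2 to 42.1) in WT. Oligodendrocyte Gria2 stood close to the yardstick, at 3.33% against 2.91% in KO and 2.30% against 1.90% in WT. Its share there may therefore hold much astrocyte RNA, which was not tested, and does not rank Gria2 above Gria4 in oligodendrocytes. Gria4, the GluA4 gene, gave 0.023% in KO and 0.014% in WT astrocytes, so Gria4 was close to 0 in the class that set the yardstick. The libraries' intervals overlapped for the oligodendrocyte Gria4 share.

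**Figure D2:**
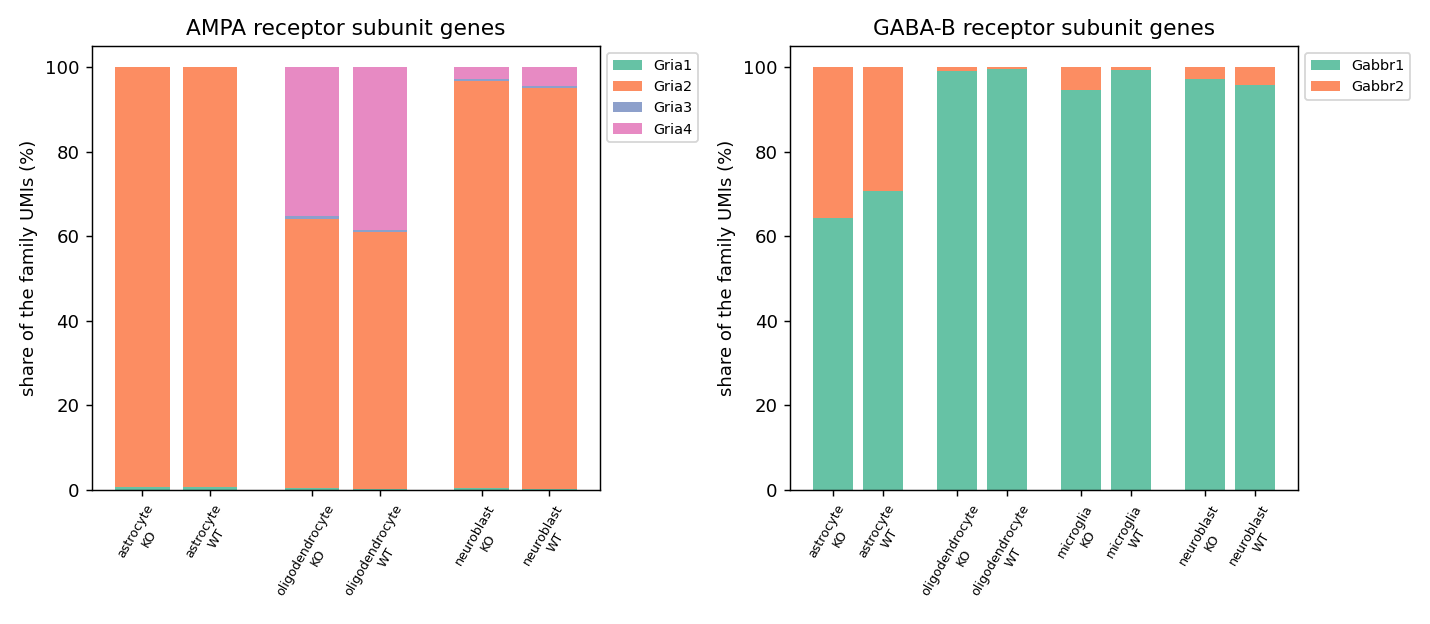
Shares (%) of UMIs given by the 4 AMPA receptor subunit genes (left) and the 2 GABA-B receptor subunit genes (right), KO left of WT within each class. Gria2 in oligodendrocytes stood close to the level that the astrocyte RNA yardstick would give. Gria4 gives 35.2% in KO and 38.6% in WT oligodendrocytes, and Gabbr2 gives 35.8% in KO and 29.4% in WT astrocytes against 5.45% or less in the 3 other classes drawn, while neutrophils and endothelial cells, which are not drawn, held larger shares from few UMIs.

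Grin2c (GluN2C, an NMDA receptor subunit, chr11:115249169-115267243, minus strand) was a gene of the astrocyte gate. Its level was 233 CPM (228 to 238) in KO and 280 CPM (274 to 287) in WT astrocytes, log2 -0.26 (-0.31 to -0.22). Oligodendrocytes held 8.55 CPM (84 UMIs) in KO and 5.56 CPM (50 UMIs) in WT, which is 3.66% and 1.99% of the astrocyte level. Both shares lay just above the yardstick of 2.91% in KO and 1.90% in WT, and in WT the gap is too small to be read. Of thinned astrocytes 40.2% in KO and 44.1% in WT had a Grin2c UMI, against 0.925% and 0.867% of thinned oligodendrocytes. The neutrophil gate, with its larger share of astrocyte RNA, held 64.8 CPM in KO and 111 CPM in WT. That is 27.7% and 39.4% of the astrocyte level, above the neutrophil yardstick of 10.99% in KO and 16.02% in WT. The part of astrocyte RNA in these values was not tested.

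The metabotropic glutamate receptor genes split in level. Grm3 (which couples to inhibitory G proteins, chr5:9485541-9725170, minus strand) stood at 230 CPM (225 to 235) in KO and 291 CPM (284 to 298) in WT astrocytes, log2 -0.34 (-0.39 to -0.30). Oligodendrocytes came next, with 124 CPM (117 to 131) in KO and 147 CPM (140 to 156) in WT, log2 -0.25 (-0.37 to -0.14). That is 53.8% and 50.7% of the astrocyte level, far above the yardstick, and Grm3 was lower in the KO library in both classes. Pericyte-gated cells, 61 in KO and 33 in WT, held 103 and 81.5 CPM of Grm3.

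Grm5 (which couples to phospholipase C and calcium release, chr7:87584168-88134907, plus strand) was near the limit of detection. Astrocytes held 145 UMIs or 4.05 CPM (3.42 to 4.76) in KO and 128 UMIs or 5.23 CPM (4.37 to 6.22) in WT, log2 -0.37 (-0.72 to -0.02). After thinning, 0.748% of KO and 0.715% of WT astrocytes had a UMI, where the order of the libraries is the other way from the CPM. Grm3 gave 98.3% of the UMIs of these 2 genes in KO and 98.2% in WT astrocytes. In KO oligodendrocytes the 22 Grm5 UMIs came from 2 of 788 cells, and 4 of 647 WT oligodendrocytes gave 7. No Grm5 UMI was counted in microglia, where 3 UMIs would make 2.16 CPM in KO and 1.99 CPM in WT.

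Gabrb1 encodes a beta subunit of the GABA-A receptor, a chloride channel (chr5:71658113-72149037, plus strand). It stood at 527 CPM (520 to 535) in KO and 699 CPM (689 to 710) in WT astrocytes, log2 -0.41 (-0.44 to -0.38). Of thinned astrocytes 62.2% in KO and 72.2% in WT had a UMI. Oligodendrocytes held 11.4 CPM (112 UMIs) in KO and 7.23 CPM (65 UMIs) in WT, or 2.16% and 1.03% of the astrocyte level. Both lie below the yardstick, so the oligodendrocyte value is read as background. The gene overlaps Gabra4 on the opposite strand.

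The GABA-B receptor works as a pair of unlike subunits. Gabbr1 (the subunit that binds GABA, chr17:37045966-37075067, plus strand) stood at 253 CPM (248 to 258) in KO and 333 CPM (325 to 340) in WT astrocytes, log2 -0.40 (-0.44 to -0.35). Gabbr2 (the subunit that couples to the G protein, chr4:46662305-46991873, minus strand) stood at 141 CPM (137 to 145) in KO and 138 CPM (134 to 143) in WT, log2 0.03 (-0.04 to 0.09). Gabbr2 was thus the 1 receptor gene whose astrocyte level in the KO library was not below that in WT, and its interval includes no difference.

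The pair parted by class as well as by library. Gabbr1 in oligodendrocytes stood at 198 CPM (189 to 207) in KO and 218 CPM (208 to 228) in WT, or 78.3% and 65.5% of the astrocyte level, whereas Gabbr2 there stood at 1.83 and 0.779 CPM, below the yardstick. Gabbr1 was also seen in neuroblasts, at 75.7 CPM (68.2 to 83.8) in KO and 90.6 CPM (80.9 to 101) in WT, and in microglia, at 74.7 CPM (61.1 to 90.5) in KO and 90.2 CPM (75.7 to 107) in WT. The intervals of neuroblasts and microglia overlapped within each library, so these neighbours in the order of Gabbr1 levels were not separated. Gabbr1 stood above the yardstick in each of the 7 other classes, in both libraries. Of the UMIs of both genes, Gabbr2 gave 35.8% (35.0 to 36.6) in KO and 29.4% (28.6 to 30.2) in WT astrocytes. In oligodendrocytes it gave 0.916% in KO and 0.356% in WT, in neuroblasts 2.88% and 4.20%, and in microglia 5.45% and 0.730%. The smaller classes rested on 88 UMIs of the pair or fewer, with Gabbr2 giving 28.4% (19.3 to 39.0) in KO and 14.5% (7.45 to 24.4) in WT neutrophils, and 8.33% (2.76 to 18.4) in KO and 10.0% (3.33 to 21.8) in WT endothelial cells, both classes with more astrocyte RNA. The astrocyte share of Gabbr2 was higher in the KO library beyond counting error. Gabbr1 in T or NK cells stood at 21.7 CPM (11.9 to 36.4) in KO and 55.5 CPM (39.1 to 76.6) in WT, from 14 and 37 UMIs.

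Adra1a (the alpha-1A adrenergic receptor, which couples noradrenaline to phospholipase C, chr14:66635251-66771168, plus strand) had 602 UMIs or 16.8 CPM (15.5 to 18.2) in KO and 703 UMIs or 28.7 CPM (26.7 to 31.0) in WT astrocytes. The ratio was 0.584, log2 -0.77 (-0.93 to -0.62). A UMI was found in 2.89% of thinned KO and 5.82% of thinned WT astrocytes. Among the 3 alpha-1 genes, Adra1a gave 46.7% (44.0 to 49.5) of the UMIs in KO and 57.8% (55.0 to 60.6) in WT astrocytes. Microglia held no Adra1a UMI, and the other classes held at most 6 in either library.

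Adora1 (the A1 adenosine receptor, which couples to inhibitory G proteins, chr1:134199223-134235431, minus strand) was the gene that oligodendrocytes held most of. They had 82.5 CPM (76.9 to 88.4) in KO and 96.5 CPM (90.2 to 103) in WT, log2 -0.23 (-0.37 to -0.09), against 37.4 CPM (35.5 to 39.5) in KO and 41.3 CPM (38.8 to 43.9) in WT astrocytes, log2 -0.14 (-0.26 to -0.02). The oligodendrocyte level was 220% of the astrocyte level in KO and 234% in WT. Each of the other 6 described classes held at most 4 UMIs of Adora1 in either library. Thinned shares of astrocytes with a UMI were 7.30% in KO and 7.05% in WT, where the order of the libraries is the other way from the CPM. The gene overlaps Mybph on the opposite strand.

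Set against all genes, the receptor genes lay to the low side in KO astrocytes. For this comparison 10 CPM was added to both levels, which pulls sparse genes toward 0, and a gene was measured where the class held 50 or more of its UMIs. All 10 receptor genes passed. With 10 CPM added, 9 were lower and 1 was higher in the KO library, with a median log2 ratio of -0.36, while all 13343 genes had a median of -0.05 and 60.1% of them were lower. None of the 10 was at least 1.5-fold higher, against 0.337% of all genes, and none was at least 1.5-fold lower, against 0.719% of all genes. On that scale Gria2 stood at -0.56, Adra1a at -0.53 and Gria1 at -0.46, short of 1.5-fold. Without the added 10 CPM, Gria1 and Adra1a passed 1.5-fold lower, with ratios of 0.570 and 0.584. The share of all genes that pass without the added CPM was not counted, so these calls cannot be set against genes at large.

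In the other classes fewer of the genes had enough UMIs. Of the 6 in oligodendrocytes, 4 were lower in KO, where 57.0% of all 10489 genes were lower, and 2 were higher. With 10 CPM added none passed 1.5-fold, against 0.419% of all genes higher and 0.629% lower, and the median was -0.08 for these 6 and -0.03 for all genes. Without the added CPM, the 2 higher genes, Grin2c at log2 0.62 (0.10 to 1.15) and Gabrb1 at 0.66 (0.20 to 1.12), passed 1.5-fold, at levels near or below the yardstick. The share of all genes that pass without the added CPM was not counted here either. Only Gria2 and Gabbr1 had enough UMIs in microglia, with log2 ratios of 0.48 (-0.06 to 1.03) and -0.27 (-0.65 to 0.11), and neither passed with 10 CPM added, against 2.84% of 7221 genes higher and 3.5% lower. In neuroblasts, a class added after its cell number was seen, Gria2 was lower in KO at -0.43 (-0.52 to -0.34) and so was Gabbr1 at -0.26 (-0.48 to -0.04). Gabrb1 stood at 0.38 (-0.43 to 1.22), and 61.1% of all genes were lower there. None of these 3 genes passed 1.5-fold with 10 CPM added, against 0.113% of 9761 genes higher and 2.68% lower.

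Gene length moved with the astrocyte ratios. Among all genes, the 20 bins of gene span had median log2 ratios of 0.05 in the shortest bin (median span 1.43 kb) and -0.19 in the longest (324 kb). The receptor genes spanned 18.1 kb (Grin2c) to 551 kb (Grm5). With the median of each gene's own span bin removed, Gria2 stood at -0.38, Adra1a at -0.35, Gabbr1 at -0.30, Gria1 at -0.27, Grin2c at -0.22, Gabrb1 at -0.21 and Grm3 at -0.14. These 7 stayed lower in KO, Adora1 came to -0.02, and Grm5 at 0.07 and Gabbr2 at 0.22 stood on the higher side. The part of length in these ratios was not tested.

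**Figure D3:**
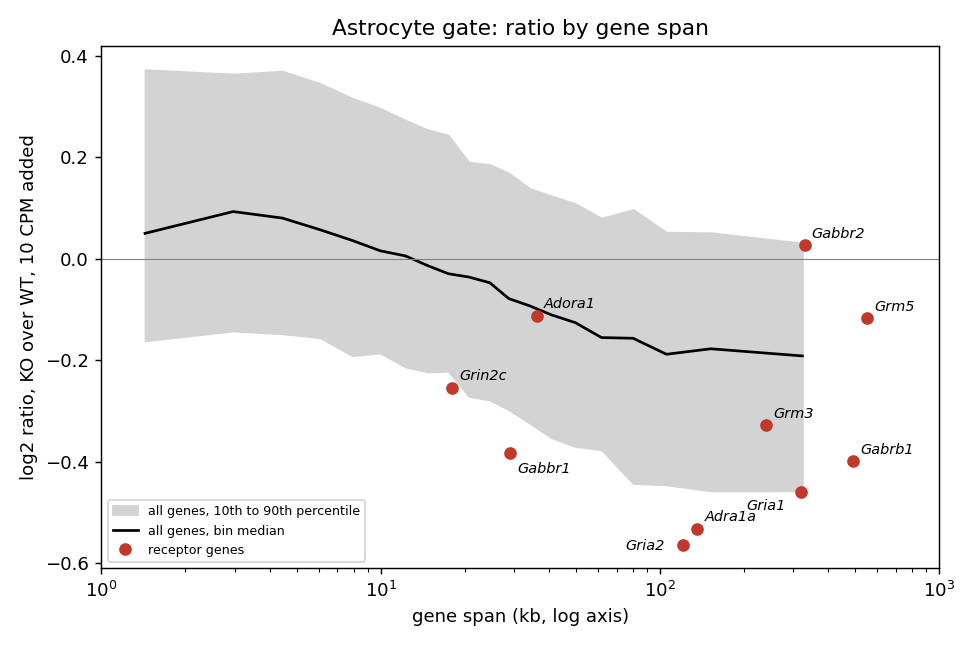
Log2 ratio of KO over WT in the astrocyte gate (10 CPM added) against gene span in kb on a log axis, with the receptor genes in red, the median of all genes per span bin as a black line and their 10th to 90th percentile in grey. The line runs to -0.19 in the longest bin. Gria2, Adra1a, Gabbr1 and Grin2c lie below the grey band at their spans, and Gria1 lies at its lower edge.

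The astrocyte gate was also not the same mix of cells in both libraries. Clusters built without the 10 genes divided it, and 5 clusters held at least 50 gated astrocytes of each library. Cluster 0, led by Id3, Mt1 and Mt2, held 35.8% of KO and 12.9% of WT gated astrocytes. Cluster 1, led by Trpm3, held 14.5% of KO and 44.8% of WT. Gria2 and Gabrb1, which the clustering did not use, were among the 10 genes with the highest fold in cluster 1, and Gria2 was also among those of cluster 4. Cluster 2, led by Nat8f1 and Tlcd1, held 28.5% and 13.9%. Cluster 4, led by Syne1, held 13.5% and 14.9%, with medians of 3014 UMIs in KO and 4557 in WT and mitochondrial shares of 10.9% and 10.8%. Cluster 5 held 5.98% and 9.48% and was given no cell type name, since its median was 2034 UMIs in KO and 1532 in WT gated cells and none of the gate's astrocyte markers was among its 10 leading genes.

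Gria2 spread widely over these clusters within either library. It stood at 1080 CPM in KO and 1336 CPM in WT cells of cluster 0, at 2365 and 2657 in cluster 1, at 1748 and 2010 in cluster 2, at 3930 and 4608 in cluster 4 and at 349 and 674 in cluster 5. It was lower in KO within each of the 5, by log2 ratios of -0.31, -0.17, -0.20, -0.23 and -0.95 in that order of clusters. Grm3, at -0.42, -0.19, -0.38, -0.45 and -0.50, and Gabbr1, at -0.39, -0.24, -0.23, -0.31 and -0.50, were also lower in KO in all 5. Gabbr2 was higher in KO in 4 of 5, at 0.02, 0.14, 0.31 and 0.08, and stood at -0.15 in cluster 5. Other genes turned between clusters. Gria1 was higher in KO in cluster 0, at 1.51 (0.46 to 2.76), from only 87 KO and 8 WT UMIs. With 10 CPM added that value was 0.38. In cluster 2 Gria1 stood at 0.06 (-0.47 to 0.61), and Grin2c was higher in KO in cluster 1, at 0.10 (0.02 to 0.19). Over the 10 genes and 5 clusters, 38 of 50 ratios were below 0 on the log2 scale, with 7 or 8 of the 10 genes lower in each cluster. These counts had no minimum of UMIs, unlike the shares of all genes that follow, so the 2 are not like for like. In cluster 5 the lower genes include Gria1, from 2 KO and 4 WT UMIs, Grm5, from 1 and 2, and Adora1, from 21 and 18. Of all genes with at least 50 UMIs, 59.5% were lower in KO in cluster 0, 58.3% in cluster 1, 58.5% in cluster 2, 58.0% in cluster 4 and 47.4% in cluster 5. With both libraries given the same mix of clusters, the astrocyte log2 ratio with 10 CPM added was -0.21 for Gria2, against -0.56 without, and -0.11 for Gria1, against -0.46. Grm3, at -0.31 against -0.33, was nearly as low as without that step.

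**Figure D4:**
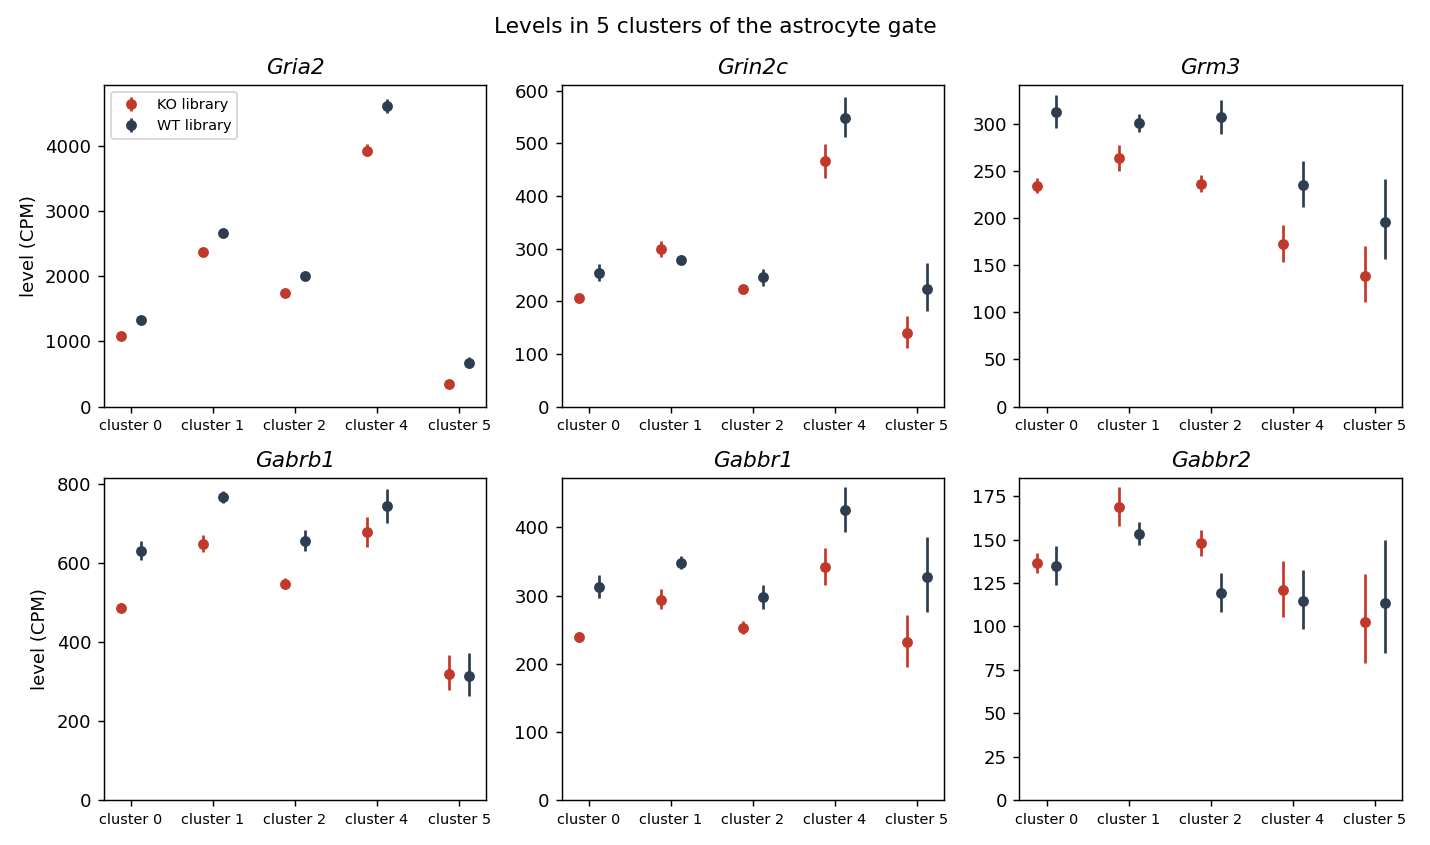
Levels (CPM) of the 6 receptor genes that reach 50 CPM in astrocytes, in 5 clusters of the astrocyte gate, KO in red left of WT in dark blue, with exact 95% counting intervals. Gria2 runs between 349 CPM in KO cells of cluster 5 and 4608 CPM in WT cells of cluster 4, and within each cluster the KO point is lower.

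**Figure D5:**
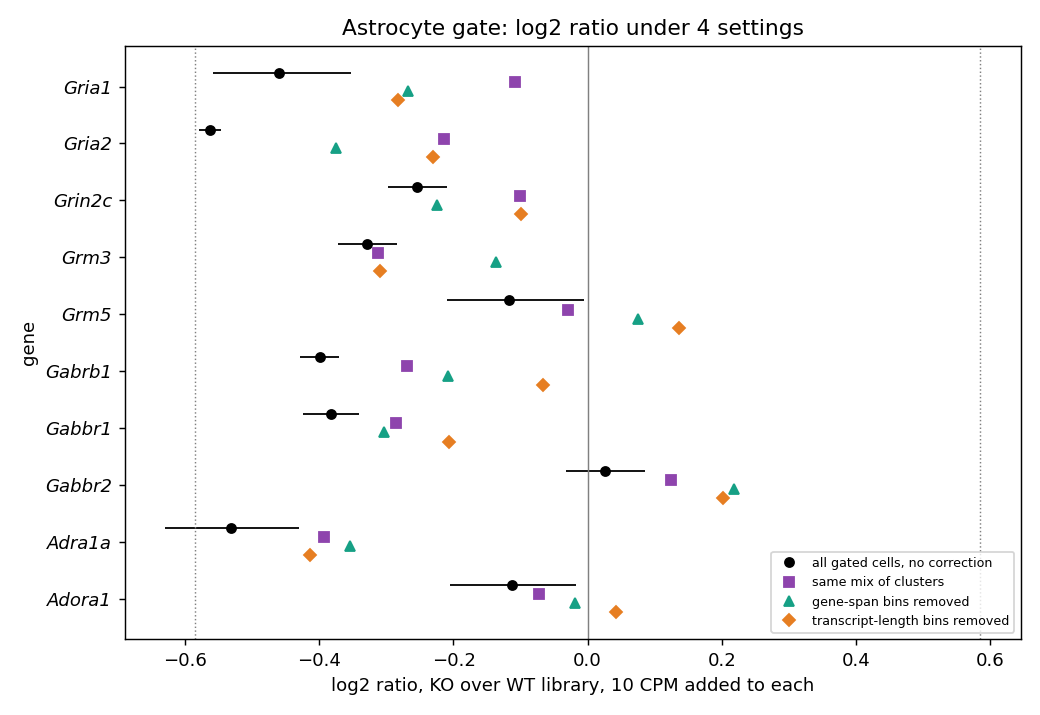
Log2 ratio of KO over WT (10 CPM added) for each receptor gene in the astrocyte gate, from all gated cells with counting intervals (black), with the same mix of clusters (purple squares), and with the medians of gene-span bins (green triangles) or transcript-length bins (orange diamonds) removed. Dotted lines mark 1.5-fold. Gria2 moves to -0.21 with the same mix of clusters, and Gabbr2 lies above 0 in all 4.

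Astrocytes with a Gfap UMI, the gene of the filament protein used as a marker of white matter and reactive astrocytes, held less Gria2 in both libraries. Among thinned cells, 190 KO astrocytes with Gfap had 1237 CPM (1128 to 1354) against 1842 CPM in 3685 without, and 80 WT astrocytes with Gfap had 1944 CPM (1734 to 2172) against 2598 CPM in 1878 without. Grm3 showed no such shared direction, at 211 against 231 CPM in KO and 350 against 277 CPM in WT. A thinned astrocyte held UMIs of on average 2.99 of the 10 genes in KO and 3.38 in WT. The mean was 0.841 in KO and 0.886 in WT oligodendrocytes, and 0.263 and 0.214 in microglia.

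Other receptor genes and their signalling partners in the astrocyte gate were counted from lists of receptor families. The counts below stand against 60.1% of all 13343 measured genes that were lower in KO astrocytes. Of 9 further AMPA, delta and kainate subunit genes 6 had 50 UMIs, with 1 above and 5 below 0 on the log2 scale. Grik5, a kainate receptor subunit gene, had 47.0 CPM in KO and 53.0 CPM in WT. All 3 measured NMDA and all 5 measured GABA-A subunit genes outside the 10 were below 0, with Gabrg1 at 218 CPM in KO and 237 CPM in WT and Gabra2 at 79.3 and 103. Of 8 other adenosine and P2Y receptor genes 4 were measured, and 3 of these were above 0, each with an interval that includes 0. Among them Adora2b, the A2B receptor, stood at 69.7 CPM in KO and 65.5 CPM in WT. With 10 CPM added, none of the genes measured from these lists passed 1.5-fold, against 0.337% of all genes higher and 0.719% lower. Without it, the kainate subunit genes Grik2, at 14.2 CPM in KO and 26.1 CPM in WT (log2 -0.88, -1.05 to -0.71), and Grik1, at 1.54 and 2.49 CPM, were past 1.5-fold lower. P2ry2, from 53 KO and 23 WT UMIs, was past 1.5-fold higher at log2 0.65 (-0.08 to 1.43), an interval that includes no difference. No share of all genes was counted without the added CPM.

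Among 17 genes of G proteins, phospholipase C and IP3 receptors, which carry the signal of the coupled receptors, 16 were measured. Of these, 14 were lower in KO, where 60.1% of all 13343 genes were lower. With 10 CPM added their median log2 ratio was -0.21, against -0.05 for all genes. None passed 1.5-fold, against 0.337% of all genes higher and 0.719% lower. The values that follow have no CPM added, and no share of all genes was counted on that scale. Itpr1, an IP3 receptor, stood at 9.24 CPM in KO and 14.6 CPM in WT, log2 -0.66 (-0.88 to -0.44), past 1.5-fold lower. Gnao1, an inhibitory-class G protein, stood at 1106 CPM in KO and 1646 CPM in WT, log2 -0.57. Itpr2, the astrocyte IP3 receptor that releases calcium, stood at 110 and 152 CPM, log2 -0.46. Gnai2, at 323 CPM in KO and 274 CPM in WT, and Gna11, at 68.6 and 57.0, stood on the higher side.

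Genes whose levels followed the receptor genes over the 16 class-by-library points were taken by high Pearson's r. Gria2 was followed by Gm3764 (0.98), Grin2c by Ngef and Rgs7 (both 0.98), and Grm3 by Kcna2 and Rgma (both 0.98). Gabrb1 was followed by Cspg5 and by Fgfr3, a marker used in the astrocyte gate (both 0.99). Gabbr1 was followed by Atxn2 and Clasp2 (both 0.95), Gabbr2 by Cfap100 and Igfbp2 (both 0.99) and Adora1 by Olfml1 and Ccdc13 (both 0.99). For Gria1, Adra1a and Grm5 the closest genes were Gm37814 (0.99), Gli2 (0.99) and Spata33 (0.95).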

How the data were processed

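Values are UMI counts as the authors deposited them, unnormalized, from Cell Ranger 4.0.0 per the file headers. Seurat 3.0, R 4.0.3 and the build mm10 stand in the submitters' processing notes. Which annotation release was used is not stated there. Of all genes, 99.8% matched GENCODE M21 by identifier, which gave positions and lengths.

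Barcodes under 500 genes or over 20% mitochondrial UMIs were left out, 1702 in KO (18.5%) and 1998 WT (27.9%). Scrublet in scanpy 1.11.5 called 4 KO and 0 WT cells by its own threshold and was taken as failed, so the highest scores were removed at 0.8% per 1000 barcodes that passed (448 KO and 212 WT cells). A class needed 3 markers, 5 marker UMIs and 70% of the cell's marker UMIs, which gated 89.6% of KO and 76.1% of WT cells; 546 KO and 590 WT cells lay between 60 and 80%. Clusters (Leiden resolution 1, leidenalg 0.10.2, 30 components, 15 neighbours) left out the 10 genes.

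Intervals are exact Poisson for levels, conditional binomial for ratios and Clopper-Pearson for shares. Scaling by edgeR 4.0.16 (trimmed mean) was an alternative. The interval steps were tested on simulated data.

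All 10 genes were named by rule, with genes of other lists where they reached 50 CPM in astrocytes and the genes most correlated with each. The genes and lists were chosen with earlier results of these data known. The cluster comparison, Gfap split and promoters were chosen after values were seen. A few genes that this rule names are not reported here.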

Additional observations from a re-analysis of the deposited data

Results flagged for a closer look

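Grin2c and Gabrb1 pointed in opposite directions in astrocytes and oligodendrocytes, and the difference between the classes was not tested. The log2 ratio of KO over WT for Grin2c was -0.26 in astrocytes and 0.62 (0.10 to 1.15) in oligodendrocytes. For Gabrb1 it was -0.41 in astrocytes and 0.66 (0.20 to 1.12) in oligodendrocytes. In oligodendrocytes both genes stood near the level that astrocyte RNA would give, which itself was higher in the KO library, at 2.91% of the astrocyte level against 1.90% in WT. Its part in these ratios was not tested.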

How the results depend on the processing

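Under all 15 settings (the reported one included) of gate, cell filter, depth, scaling and length, Gria1, Gria2, Grin2c, Grm3, Gabrb1, Gabbr1 and Adra1a were lower in KO astrocytes in each, and Gabbr2 was higher in each (log2 0.01 to 0.22). Gria2 ranged between -0.61 and -0.21. The number of receptor genes at least 1.5-fold lower was 0, but 1 with the gate at 90% (Gria2), 1 with the stricter cell filter (Gria2), 1 with cells thinned to 2000 UMIs (Adra1a) and 2 with no CPM added (Gria1 and Adra1a). The share of all genes past 1.5-fold was not counted under these other settings, so these counts cannot be set against genes at large. In astrocytes Grm5 turned to 0.0051 when cells were weighed equally, 0.14 thinned, 0.074 with span-bin medians removed and 0.14 with transcript-length medians removed, and Adora1 to 0.043 with the last. In oligodendrocytes Grin2c turned to -0.075 in named clusters, -0.14 when cells were weighed equally and -0.36 thinned, and Gabrb1 to -0.20 when weighed equally and -0.084 thinned. Gabbr1 in neuroblasts turned to 0.087 thinned. The cause was not tested. The number of genes highest in astrocytes was 9, and 8 thinned. The median over the 10 genes was -0.36, and -0.25 with trimmed mean scaling (which shifts all genes of this gate by 0.11), -0.22 with span-bin medians removed, -0.16 with the same mix of clusters and -0.15 with transcript-length medians removed. Removing cells with over 1% hemoglobin UMIs, added after seeing the data, changed no direction in astrocytes. No paired analysis was possible because each genotype had 1 library, and no library could be left out.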

Other observations

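A cluster led by markers of oligodendrocyte precursors, with 45 KO and 69 WT cells, was too small for the classes above. It held Gria2 at 1076 CPM (991 to 1166) in KO and 1044 CPM (982 to 1109) in WT. Grm5 stood there at 39.8 CPM (24.9 to 60.2) in KO and 12.9 CPM (6.87 to 22.1) in WT, from 22 and 13 UMIs. Gabbr1 stood at 63.3 CPM in KO and 69.4 CPM in WT. The cells that passed no gate, 734 in KO and 1183 in WT, held Gria2 at 372 CPM (356 to 388) and 423 CPM (405 to 442), with medians of 3858 and 1313 UMIs per cell.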
